A study of Mus musculus with 6 samples.

Results

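Blood vessels of the embryonic cortex were followed through 10 marker genes, chosen by symbol: Kdr, Flt1, Tek, Tie1, Cdh5, Pecam1, Esam and Cldn5 for endothelial cells, and Pdgfrb and Rgs5 for pericytes. All 10 were found, once each, among 37991 genes in every library. RNA came from the dorsal telencephalon, the part of the forebrain that forms the cortex, of CD1 mouse embryos. The FGF2 embryos (6, 7 and 8) received 100 ng of FGF2 into the brain ventricles at E13.5, and the vehicle embryos (7, 8 and 9) received PBS with 0.1% BSA in the same way. One library was made per embryo from total RNA of formalin-fixed coronal sections taken in front of the hippocampus, and the labels give the same age for all 6 and no interval between injection and collection. The study asks which genes differ after FGF2 injection in cortical folding induced by FGF2.

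Vessels enter the cortical wall from a plexus on its surface. Neural progenitors secrete VEGF-A and Wnt ligands, endothelial cells read them through the VEGF receptors and Frizzled, and the new sprouts release PDGF-B, which draws in pericytes that carry Pdgfrb. Angiopoietins and the Tie receptors then steady the vessel, and claudin junctions seal it into a blood-brain barrier.

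Total counts were 64631136 to 81532334 in the FGF2 libraries and 61489462 to 68101511 in the vehicle libraries, and the 10 markers together held 0.0302% to 0.0339% of the counts in the FGF2 libraries and 0.0258% to 0.0298% in the vehicle libraries. Even numbers made up 100.0% of the non-zero counts in vehicle 9 and 51.0% to 51.9% elsewhere. Y-linked genes were read in the 3 FGF2 embryos and in vehicle 7, while vehicle 8 and vehicle 9 had 58349 and 57904 reads of Xist, so 1 vehicle embryo shares the sex of the FGF2 embryos. Ventral telencephalon markers summed to 421.8 to 600.6 CPM (counts scaled to library size with TMM factors) in the FGF2 embryos and 25.2 to 112.0 CPM in the vehicle embryos, and choroid plexus markers to 175.9 to 485.5 CPM in the FGF2 embryos and 22.5 to 24.6 CPM in the vehicle embryos. Of the 9 choroid plexus genes 8 were higher in the FGF2 embryos and 1, Aqp1, was lower. Aqp1 had 12.7, 8.27 and 6.03 CPM in FGF2 6, 7 and 8, against 19.5, 20.3 and 19.8 CPM in vehicle 7, 8 and 9. It made up most of the choroid plexus sum in the vehicle embryos. Whether these regional differences play a part in any result on vessels was not tested.

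None of the vessel markers was called between the groups. With edgeR's quasi-likelihood test 0 of 10 markers passed an adjusted p of 0.05. Over the 21983 genes tested the share was 3.63%, with 2.68% higher and 0.951% lower, so a count of 0 in 10 lies near the background. An unadjusted p under 0.05 was found for 2 of the 10 (Pecam1 and Pdgfrb), against 19.3% of all genes, and the count of called markers was also 0 with DESeq2 and with voom and sample quality weights. The median log2 fold change of the markers, FGF2 over vehicle, was 0.20, against 0.01 over all genes tested. Of the 10 values 7 were above 0, and 3 (Kdr, Flt1 and Cdh5) were below 0 by at most 0.05 on the log2 scale. For Pecam1 and Pdgfrb every FGF2 embryo lay above every vehicle embryo in CPM. This makes 2 of 10 markers without overlap, against 28.2% of all genes (14.6% higher and 13.6% lower). For 9 of the 10 markers the 95% interval of the difference stayed below a 2-fold change in either direction, and only that of Rgs5 reached beyond it. In bulk RNA of this kind, fewer cells of a type and less RNA per cell cannot be told apart.

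**Figure D1:**
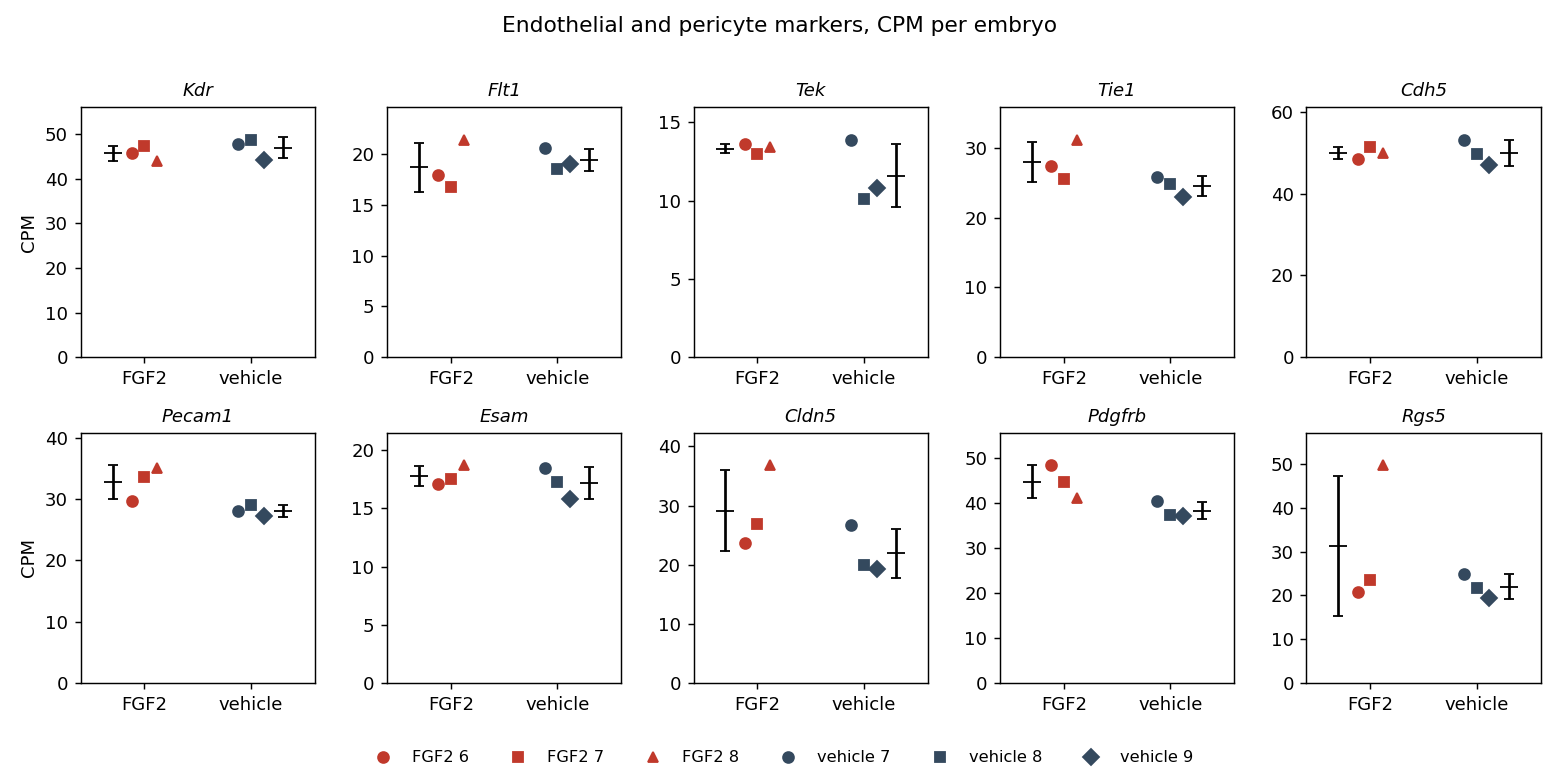
Normalised expression (CPM, linear axes from 0) of the 8 endothelial and 2 pericyte markers in each embryo, FGF2 embryos on the left in red and vehicle embryos on the right in blue, with the group mean and SD (n = 3) in black beside the points. The groups overlap in 8 panels; in those of Pecam1 and Pdgfrb all 3 FGF2 points lie above the vehicle points, and Rgs5 has 1 high point, FGF2 8, at 49.8 CPM.

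Levels between genes were compared on the deposited RPKM, which scale reads for gene length. Cldn5 was the most abundant at a mean of 19.8 RPKM over the 6 embryos, followed by Cdh5 at 13.2 RPKM, and these lay apart from each other and from the rest in every embryo. Pdgfrb (7.96), Pecam1 (7.03), Kdr (6.74), Esam (6.23), Rgs5 (5.96) and Tie1 (5.36 RPKM) came next, and the ranges of neighbours in this order overlapped. Tek at 2.36 RPKM and Flt1 at 1.48 RPKM were lowest, and each lay below the one before it in every embryo. For Flt1, CPM divided by RPKM came to 12.37 to 13.41, against 1.25 to 1.34 for Cldn5 and 2.72 to 7.06 for the other 8. The counts include introns, and the gene length behind the RPKM is not given in the labels.

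Promoter windows from RefSeq's GRCm38.p6 table (250 bases before to 50 bases after the start) were used for 6 of the 10 genes. The other markers were left out of this search, whether or not that table holds a window for them. The letters AGGAAG, which contain the GGAA core bound by ETS factors such as Erg and Fli1 of endothelial cells, were searched on both strands. They occurred in 2 of the 6 windows (Flt1 and Tie1, with 2 matches each), against 35.4% of all 32851 windows. Both windows below are printed 5′ to 3′ on the gene's strand, with matches on either strand in capitals: that of Tie1 for its 2 matches, and that of Rgs5, the marker with the largest difference, which has none of these letters. Tie1 lies on the minus strand (chr4:118489800-118490099) and Rgs5 on the plus strand (chr1:169655251-169655550).
Tie1: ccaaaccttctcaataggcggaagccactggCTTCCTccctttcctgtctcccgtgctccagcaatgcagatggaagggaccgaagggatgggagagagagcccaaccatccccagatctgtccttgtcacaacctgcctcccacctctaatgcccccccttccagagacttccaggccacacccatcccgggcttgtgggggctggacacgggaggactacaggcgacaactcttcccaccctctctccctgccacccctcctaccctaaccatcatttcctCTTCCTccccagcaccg
Rgs5: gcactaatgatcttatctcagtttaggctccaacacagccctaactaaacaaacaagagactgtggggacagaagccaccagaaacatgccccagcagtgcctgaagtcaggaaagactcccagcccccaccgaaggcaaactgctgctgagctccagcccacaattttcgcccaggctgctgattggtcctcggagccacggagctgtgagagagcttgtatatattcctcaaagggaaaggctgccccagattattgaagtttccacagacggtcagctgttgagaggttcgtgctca

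Kdr, the main signalling receptor for VEGF-A (ENSMUSG00000062960, chromosome 5, 76328852 to 76374483, NCBIM37, as all positions of the counts), had 45.7, 47.3 and 43.9 CPM in FGF2 6, 7 and 8, against 47.8, 48.7 and 44.2 CPM in vehicle 7, 8 and 9. The groups overlapped, with a log2 fold change of -0.04 ± 0.08 (SE, edgeR adjusted p = 0.816) and a 95% interval of 0.86-fold to 1.10-fold. Flt1, a VEGF receptor that also exists as a soluble decoy (ENSMUSG00000029648, chromosome 5, 148373180 to 148537587), had 17.9, 16.7 and 21.4 CPM in the FGF2 embryos, against 20.6, 18.5 and 19.0 CPM in the vehicle embryos. FGF2 embryos held both its highest and its lowest value, and the difference was -0.05 ± 0.12 (log2, SE, edgeR adjusted p = 0.840), with an interval of 0.80-fold to 1.17-fold.

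Tek encodes Tie2, the receptor for angiopoietins (ENSMUSG00000006386, chromosome 4, 94405980 to 94541667). Its counts came to 13.6, 13.0 and 13.4 CPM in FGF2 6, 7 and 8, against 13.9, 10.1 and 10.8 CPM in vehicle 7, 8 and 9. Vehicle 7 was the highest of the 6 and the other vehicle embryos were the lowest, and the log2 fold change was 0.20 ± 0.14 (SE, edgeR adjusted p = 0.486). With embryo sex as a covariate, which leaves vehicle 7 as the only vehicle embryo of the same sex as the FGF2 embryos, it was -0.06. Tie1, the partner receptor of Tie2 (ENSMUSG00000033191, chromosome 4, 118143796 to 118162666), had 27.4, 25.5 and 31.2 CPM in the FGF2 embryos, against 25.8, 24.8 and 23.0 CPM in the vehicle embryos. Only FGF2 7 fell below the highest vehicle embryo, and the log2 fold change was 0.19 ± 0.11 (SE, edgeR adjusted p = 0.372). In RPKM the groups of Tie1 did not overlap, at 5.34 to 6.33 in the FGF2 embryos and 4.64 to 5.19 in the vehicle embryos.

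Among the junction and adhesion genes, Cdh5, which encodes VE-cadherin of the adherens junction (ENSMUSG00000031871, chromosome 8, 106625525 to 106668402), had 48.4, 51.3 and 49.9 CPM in FGF2 6, 7 and 8, against 53.2, 49.8 and 46.9 CPM in vehicle 7, 8 and 9. The FGF2 values lay inside the vehicle range, with an SD of 1.46 CPM among FGF2 and 3.12 CPM among vehicle embryos (n = 3 each), an edgeR adjusted p of 0.989 and an interval of 0.88-fold to 1.13-fold. Esam, an endothelial adhesion molecule of tight junctions (ENSMUSG00000001946, chromosome 9, 37335663 to 37345904), was at 17.1, 17.5 and 18.7 CPM in the FGF2 embryos, against 18.5, 17.3 and 15.8 CPM in the vehicle embryos. These overlapped too, at a log2 fold change of 0.05 ± 0.10 (SE, edgeR adjusted p = 0.836).

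Pecam1, an adhesion molecule of endothelial cells that leukocytes and platelets also carry (ENSMUSG00000020717, chromosome 11, 106515531 to 106611942), had 29.7, 33.6 and 35.0 CPM in FGF2 6, 7 and 8, against 28.0, 29.1 and 27.2 CPM in vehicle 7, 8 and 9. The lowest FGF2 embryo lay above the highest vehicle embryo by under 1 CPM. The log2 fold change was 0.22 ± 0.09 (SE, edgeR adjusted p = 0.248). Of 12 microglia and macrophage markers edgeR called 4 as higher (Ptprc, Tyrobp, C1qb and C1qc), 0 as lower and left 8 uncalled. DESeq2 and voom each called 8 higher and 0 lower. Shares over all 21983 genes tested were 2.68% higher and 0.951% lower with edgeR. Over the same genes DESeq2 called 1344 higher and 801 lower, and voom 1273 higher and 986 lower. The 12 microglia and macrophage markers summed to 146.0 to 170.3 CPM in the FGF2 embryos and 101.1 to 121.0 CPM in the vehicle embryos. Ptprc, the CD45 antigen of leukocytes, stood at 3.23 ± 0.160 in FGF2 and 1.38 ± 0.184 CPM in vehicle embryos (SD, n = 3, edgeR adjusted p = 0.0202), and its call was lost when FGF2 7 or any single vehicle embryo was left out (edgeR adjusted p 0.0625 to 0.106), with embryo number as a block (0.0646) and with sex as a covariate (0.398). Their part in the Pecam1 value was not tested. A copy of the small RNA U3 lies within the Pecam1 span and had 1 read in all.

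Cldn5, the claudin that seals brain endothelium (ENSMUSG00000041378, chromosome 16, 18776940 to 18778353), had 23.7, 26.8 and 36.8 CPM in FGF2 6, 7 and 8, against 26.7, 19.9 and 19.2 CPM in vehicle 7, 8 and 9. FGF2 8 was highest, vehicle 7 lay next to FGF2 7, and the log2 fold change of 0.41 ± 0.19 (SE) did not pass (edgeR adjusted p = 0.302, interval 0.97-fold to 1.81-fold). It was 0.20 without FGF2 8 and 0.13 with embryo sex as a covariate.

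**Figure D2:**
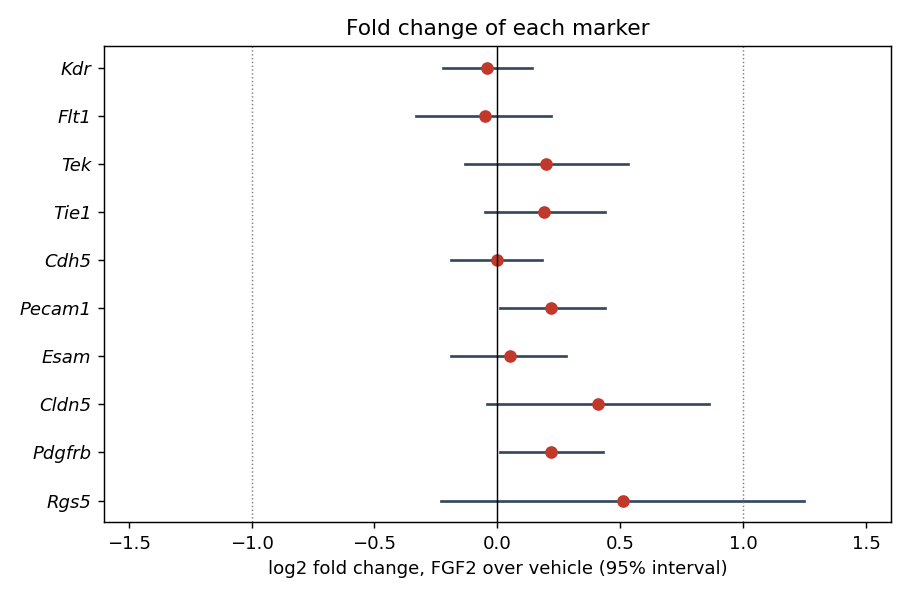
Log2 fold change of each marker, FGF2 over vehicle, as red points with 95% intervals from the edgeR fit as lines; the solid vertical line marks no difference and the dotted lines a 2-fold change. The intervals of Pecam1 and Pdgfrb lie just above 0 before adjustment, those of the other 8 include 0, and that of Rgs5 is the widest (-0.23 to 1.25).

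Of the pericyte markers, Pdgfrb, the PDGF-B receptor that pericytes share with meningeal fibroblasts (ENSMUSG00000024620, chromosome 18, 61204804 to 61244715), had 48.3, 44.7 and 41.0 CPM in FGF2 6, 7 and 8, against 40.5, 37.3 and 37.0 CPM in vehicle 7, 8 and 9. The groups did not overlap, and the closest embryos lay under 1 CPM apart. The log2 fold change of 0.22 ± 0.09 (SE) was not called (edgeR adjusted p = 0.236, interval 1.01-fold to 1.35-fold). Among 11 meningeal and fibroblast genes edgeR called 2 as lower, the collagens Col1a1 and Col1a2 (log2 fold changes of -0.92 and -0.71), 0 as higher and left 9 uncalled, with 5 of the 11 values above 0 and a median of -0.06. DESeq2 called 3 lower (Col3a1 too) and 2 higher, Aldh1a2 and Ptgds, and voom the same 3 lower and 1 higher, Ptgds. Shares over all genes tested were 0.951% lower and 2.68% higher with edgeR, and 51.4% of all values were above 0. Over the whole table DESeq2 called 801 genes lower and 1344 higher, and voom 986 lower and 1273 higher. Aldh1a2, a retinoic acid enzyme of the meninges, had 3.93, 12.6 and 9.19 CPM in the FGF2 embryos, against 2.85, 2.30 and 3.17 CPM in the vehicle embryos. The list, most of it collagen reads, summed to 2245 to 2497 CPM in the FGF2 embryos and 3599 to 4125 CPM in the vehicle embryos, and its part in the Pdgfrb value was not tested.

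Rgs5, a regulator of G protein signalling enriched in pericytes (ENSMUSG00000026678, chromosome 1, 171585632 to 171625944), had 20.8, 23.5 and 49.8 CPM in FGF2 6, 7 and 8, against 25.0, 21.7 and 19.4 CPM in vehicle 7, 8 and 9. FGF2 8 stood alone, and FGF2 6 and 7 lay inside the vehicle range. Its log2 fold change of 0.51 ± 0.32 (SE) was the highest of the 10 and was not called (edgeR adjusted p = 0.428), and without FGF2 8 it was 0.01. In RPKM, too, FGF2 8 stood apart: Rgs5 had 4.70, 5.29 and 11.1 RPKM in FGF2 6, 7 and 8, against 5.46, 4.70 and 4.47 RPKM in the vehicle libraries 7, 8 and 9. The same embryo was also highest of the FGF2 embryos in 2 genes from outside vessels, the neuronal Neurod6 (82.5, 135.1 and 265.8 CPM in FGF2 6, 7 and 8) and Ttr of the choroid plexus (59.1, 125.6 and 391.9 CPM), both chosen after their values were seen. Neurod6 is 1 of the 11 dorsal telencephalon genes. Of these, FGF2 8 was highest of all 6 embryos in 0 and lowest in 4, so a vehicle embryo exceeded its Neurod6 value. Of the 9 choroid plexus genes FGF2 8 was highest of all 6 embryos in 4. Otx2, a transcription factor of that epithelium, was lowest of the FGF2 embryos there (74.5, 60.8 and 42.7 CPM in FGF2 6, 7 and 8). Their part in its Rgs5 level was not tested.

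Counts set against those of Cdh5 in the same library need no scaling between libraries. For Kdr this ratio was 0.945, 0.921 and 0.879 in FGF2 6, 7 and 8, against 0.899, 0.977 and 0.942 in vehicle 7, 8 and 9, and for Esam 0.353, 0.340 and 0.375 in the FGF2 embryos against 0.348, 0.347 and 0.336 in the vehicle embryos. Both overlapped between the groups. Pdgfrb had 0.997, 0.870 and 0.821 reads per Cdh5 read in the FGF2 embryos, against 0.762, 0.748 and 0.790 in the vehicle embryos, and Pecam1 0.613, 0.654 and 0.702 in FGF2 against 0.527, 0.583 and 0.580 in vehicle embryos. Those 2 ratios were the only ones of 9 in which the groups did not overlap, both with the FGF2 embryos higher. They belong to the same 2 genes that did not overlap in CPM, where 28.2% of all genes tested did not. Cdh5 itself had a log2 fold change of -0.0028, so the ratios largely repeat the CPM values. No share over all genes was computed for such ratios. The ratios were computed after the values were seen and were not tested. For Rgs5 the ratio was 0.430, 0.458 and 0.998 in FGF2 6, 7 and 8, against 0.470, 0.435 and 0.414 in vehicle 7, 8 and 9.

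Of 28 other endothelial genes, 0 rose, 0 fell and 28 did not pass, with a median log2 fold change of 0.12. An unadjusted p under 0.05 was found in 4 of the 28, against 19.3% of all genes. Of the values 23 were above 0, against 51.4% of all genes. The smallest p-values were those of S1pr1, a sphingosine-phosphate receptor that neural progenitors also express, at 22.0 ± 3.01 in FGF2 and 16.3 ± 1.04 CPM in vehicle embryos (SD, n = 3, edgeR adjusted p = 0.118), of Emcn, the endothelial sialomucin endomucin, at 13.4 ± 0.876 in FGF2 and 10.3 ± 1.40 CPM in vehicle embryos (edgeR adjusted p = 0.185), and of Myct1 at 2.01 ± 0.129 in FGF2 and 1.38 ± 0.183 CPM in vehicle embryos (edgeR adjusted p = 0.220). In each of the 3 genes, picked by p-value, the FGF2 embryos lay above the vehicle embryos. Of the 28 genes 5 were higher without overlap and 0 lower, against 14.6% and 13.6% of all genes tested. S1pr1 was called without FGF2 8 (edgeR adjusted p = 0.0116), with DESeq2 (adjusted p = 0.0426) and with voom (adjusted p = 0.0112). Each of these settings also called more genes over the whole table than the main fit. S1pr1 was not called when any other single embryo was left out (edgeR adjusted p 0.217 to 0.356). It was also not called with embryo number as a block (0.409) or in log2(RPKM + 1) (limma adjusted p = 0.103).

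Among VEGF ligands and receptors 0 of 10 passed in either direction with edgeR, with a median of -0.05. An unadjusted p under 0.05 was found for 3 of the 10, against 19.3% of all genes. DESeq2 and voom each called 1, Vegfb, as lower (adjusted p = 0.0209 and 0.0144). Vegfa, the main angiogenic ligand, had 79.9, 76.4 and 90.2 CPM in the FGF2 embryos, against 74.8, 65.6 and 72.0 CPM in the vehicle embryos, a log2 fold change of 0.21 ± 0.09 (SE, edgeR adjusted p = 0.250). Vegfb and Vegfc, a ligand of Flt1 and a ligand of the lymphatic receptor Flt4, differed the other way, at 64.8 ± 4.92 in FGF2 and 79.6 ± 2.98 CPM in vehicle embryos and 9.66 ± 1.02 in FGF2 and 13.1 ± 1.81 CPM in vehicle embryos (SD, n = 3, edgeR adjusted p = 0.0971 and 0.158). The groups did not overlap in any of these 3 ligands, which were picked by p-value. Of the 10 genes 2 were higher without overlap and 2 lower, against 14.6% and 13.6% of all genes tested. Of the PDGF ligands and receptors 0 of 6 passed with edgeR, 0 with DESeq2 and 0 with voom. An unadjusted p under 0.05 was found for 2 of the 6, against 19.3% of all genes. Pdgfb, the ligand that endothelial cells offer to Pdgfrb, had a log2 fold change of 0.04 (edgeR adjusted p = 0.884). Pdgfa and Pdgfc, ligands that bind PDGF receptor alpha, were at 24.2 ± 4.41 in FGF2 and 18.1 ± 5.71 CPM in vehicle embryos and 18.9 ± 2.92 in FGF2 and 24.1 ± 1.92 CPM in vehicle embryos (SD, n = 3, edgeR adjusted p = 0.387 and 0.210).

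Of 5 angiopoietin and Tie genes 1 rose with edgeR, 0 fell and 4 did not pass, and DESeq2 and voom called the same 1. Angpt1, the ligand that activates Tie2 and that perivascular and neural cells secrete, had 10.7, 9.09 and 7.81 CPM in FGF2 6, 7 and 8, against 5.38, 4.73 and 5.52 CPM in vehicle 7, 8 and 9. It rose by 0.82 ± 0.16 on the log2 scale (SE, edgeR adjusted p = 0.0383), while its receptor Tek differed by 0.20 as given above. The call was lost when any single embryo other than FGF2 8 was left out, at an edgeR adjusted p of 0.104 to 0.178 and a log2 fold change of 0.70 to 0.86, and in log2(RPKM + 1) (limma adjusted p = 0.0855). Angpt2, the context-dependent antagonist made by sprouting endothelium, had a log2 fold change of -0.06 (edgeR adjusted p = 0.888), but its span lies within that of Mcph1 and its reads cannot be told apart from those of that gene. Ptprb, the phosphatase that restrains Tie2, was at 10.8 ± 0.124 in FGF2 and 8.63 ± 0.833 CPM in vehicle embryos (SD, n = 3, edgeR adjusted p = 0.214).

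**Figure D3:**
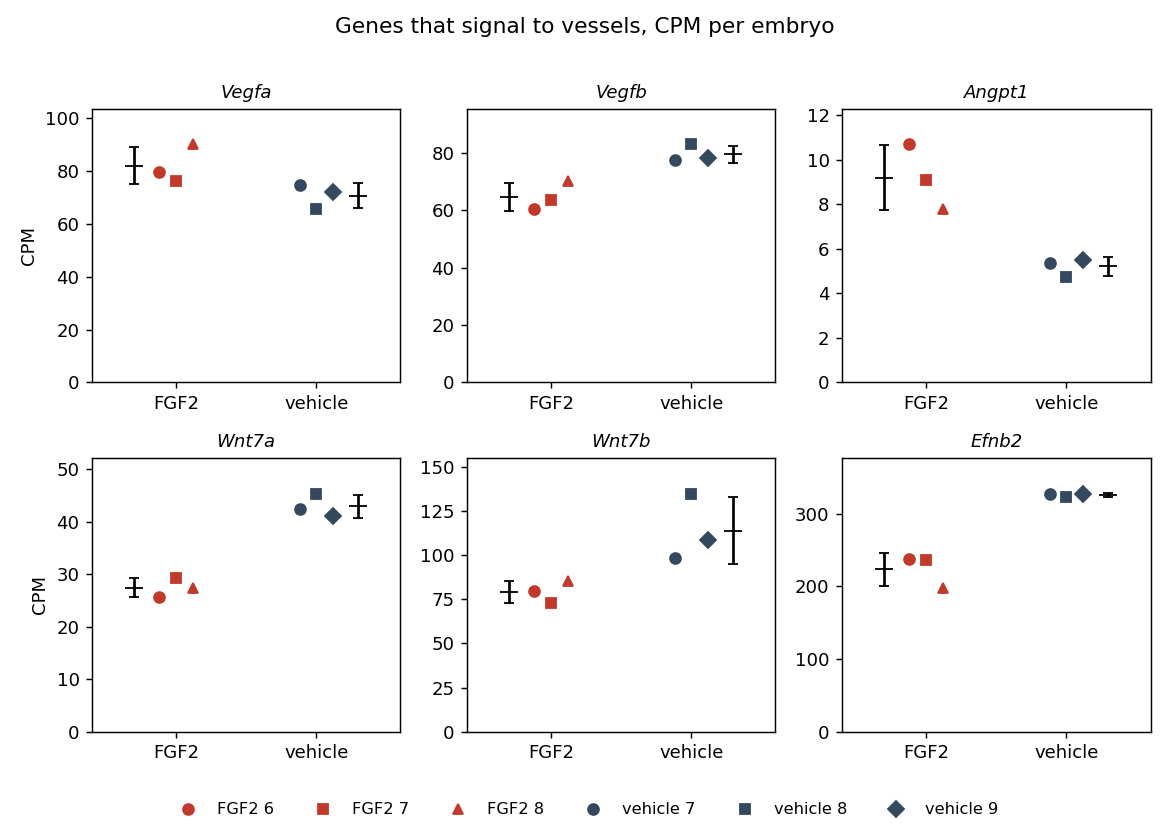
Normalised expression (CPM, linear axes from 0) of 6 genes that signal to vessels in each embryo, FGF2 embryos on the left in red and vehicle embryos on the right in blue, with the group mean and SD (n = 3) in black beside the points. Angpt1 and Vegfa lie higher in all FGF2 embryos and Vegfb, Wnt7a, Wnt7b and Efnb2 lower; of the 6, Angpt1, Wnt7a and Efnb2 were called.

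Among 15 brain vessel Wnt and barrier genes edgeR called 1 as lower, 0 as higher and left 14 uncalled, with a median of -0.09. DESeq2 called 1 higher (Ocln) and 2 lower (Wnt7a and Wnt7b), and voom 0 higher and the same 2 lower. Wnt7a, a ligand that neural progenitors send to brain endothelium, had 25.6, 29.3 and 27.5 CPM in the FGF2 embryos, against 42.5, 45.4 and 41.1 CPM in the vehicle embryos. It fell by 0.65 on the log2 scale (SE 0.09, edgeR adjusted p = 0.0101), and its call was lost on leaving out vehicle 7 (adjusted p = 0.0588) or vehicle 8 (0.0718). The related ligand Wnt7b had 79.2 ± 6.12 in FGF2 and 113.9 ± 18.8 CPM in vehicle embryos (SD, n = 3, edgeR adjusted p = 0.0666, against 0.00465 with DESeq2 and 0.0426 with voom). Of 11 dorsal telencephalon genes edgeR called 3 as lower (Emx1, Eomes and Pax6) and 0 as higher, against 0.951% and 2.68% of all genes tested. DESeq2 called 5 of the 11 lower and 0 higher, and voom 6 lower and 1 higher. Over the whole table DESeq2 called 801 genes lower and 1344 higher, and voom 986 lower and 1273 higher. The 11 dorsal genes summed to 2445 to 2503 CPM in the FGF2 embryos and 3214 to 3339 CPM in the vehicle embryos, and their part was not tested. On the endothelial side the receptors and the barrier transporters did not pass: Gpr124 and Reck, which pass the Wnt7 signal on, had log2 fold changes of -0.04 and -0.13, and Slc2a1 and Mfsd2a, transporters of glucose and of lipids, -0.09 and -0.16. Ocln, a tight junction protein of epithelia and endothelia, had 2.71 ± 0.460 in FGF2 and 1.49 ± 0.429 CPM in vehicle embryos (SD, n = 3, edgeR adjusted p = 0.133, against 0.0414 with DESeq2 and 0.0748 with voom), and choroid plexus epithelium, whose sums are given above, also makes it.

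Of 13 Notch, ephrin and Apelin genes of vessels 1 fell with edgeR, 0 rose and 12 did not pass, while DESeq2 and voom each called 1 higher (Unc5b) and 2 lower (Efnb2 and Hey1). The edgeR median was 0.08. Efnb2, the ephrin of arterial endothelium that cortical progenitors also express, had 237.2, 235.9 and 197.6 CPM in FGF2 6, 7 and 8, against 326.5, 322.3 and 327.5 CPM in vehicle 7, 8 and 9. It fell by 0.54 on the log2 scale (SE 0.09, edgeR adjusted p = 0.0246), and was not called when any single embryo other than FGF2 8 was left out (adjusted p 0.0534 to 0.118) or with log2(RPKM + 1) unfiltered (limma adjusted p = 0.0589). Hey1, a Notch target of endothelium and progenitors, and Unc5b, a netrin receptor of endothelial tip cells, stood at 46.3 ± 9.65 in FGF2 and 72.8 ± 7.24 CPM in vehicle embryos and 19.2 ± 1.82 in FGF2 and 13.9 ± 1.09 CPM in vehicle embryos (SD, n = 3, edgeR adjusted p = 0.0646 and 0.0731). Both passed with DESeq2 (adjusted p = 0.00304 and 0.00819) and without FGF2 8 (edgeR adjusted p = 0.0412 and 0.0205). Without FGF2 7 Hey1 passed (edgeR adjusted p = 0.0397) and Unc5b did not (0.173). Neither passed when FGF2 6 or any single vehicle embryo was left out (edgeR adjusted p 0.125 to 0.279). Ephb4, the venous receptor of Efnb2, had a log2 fold change of -0.12 and the tip cell ligand Dll4 of -0.04. Over all vascular lists, basement membrane genes included and the 10 markers left out, edgeR called 1 of 96 genes as higher and 2 as lower, 3.12% in all against 3.63% of all genes tested, so this count lies near the background. DESeq2 called 5 higher and 6 lower (11.5% of the 96), and voom 3 higher and 6 lower (9.38%). Over the 21983 genes tested DESeq2 called 1344 higher and 801 lower, and voom 1273 higher and 986 lower.

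Of the other pericyte and mural genes 0 of 14 passed with edgeR, with a median of 0.02. An unadjusted p under 0.05 was found for 5 of the 14 (35.7%), against 19.3% of all genes. Acta2 and Tagln, contractile genes of smooth muscle, had 29.3 ± 8.57 in FGF2 and 54.7 ± 10.2 CPM in vehicle embryos and 17.7 ± 3.76 in FGF2 and 24.8 ± 1.68 CPM in vehicle embryos (SD, n = 3, edgeR adjusted p = 0.0885 and 0.155). Foxf2, a transcription factor of brain pericytes, had 10.8, 10.9 and 14.0 CPM in the FGF2 embryos, against 9.09, 8.54 and 7.56 CPM in the vehicle embryos (edgeR adjusted p = 0.122). In these 3 genes, picked by p-value, the groups did not overlap. Of the 14 genes 1 was higher without overlap and 3 were lower, against 14.6% and 13.6% of all genes tested. Acta2 was called as lower and Foxf2 as higher with DESeq2 (adjusted p = 0.00308 and 0.0308), and with voom 1 gene was called, Notch3, as lower.

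**Figure D4:**
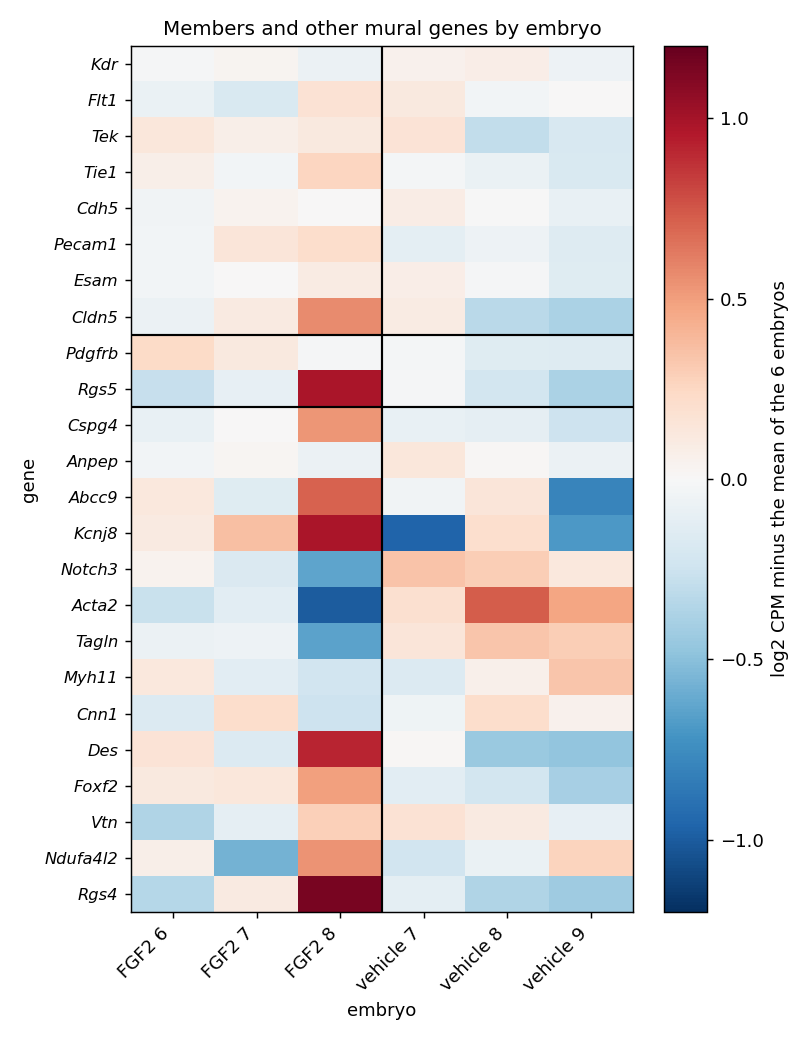
Log2 CPM of each gene minus its mean over the 6 embryos, as colour from -1.2 (blue) to 1.2 (red), with FGF2 embryos left of the vertical line and vehicle embryos right of it; horizontal lines part the 8 endothelial markers, the 2 pericyte markers and the other 14 mural genes. The endothelial rows are pale throughout except Cldn5, and the column of FGF2 8 has the strongest colours, red for Rgs5, Kcnj8 and Rgs4 and blue for Acta2.

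Single libraries held many of the extremes of the markers. FGF2 8 was the highest embryo for 6 of the 10 markers and vehicle 9 the lowest for 7, where over all genes FGF2 8 was highest in 28.0% and vehicle 9 lowest in 17.0%. The mean profile of the 8 endothelial markers, centred on the log2 scale, ran over -0.01, 0.02 and 0.17 in FGF2 6, 7 and 8 and 0.06, -0.09 and -0.15 in vehicle 7, 8 and 9. Among 16905 genes averaging 1 CPM or more, those with the most similar profile over the 6 embryos were Pde8b, Ccdc141, Smox, Arsg, Manbal, Rerg, 4930517O19Rik and Zfand2b, at a Pearson r of 0.976 to 0.991 and a Spearman rho of 0.89 or above. For the pericyte pair they were Dclk2, Osbpl6, Spock2, Myl6b, Gm11703, Gm13305, Gm14597 and Pfkfb2, at an r of 0.986 to 0.991 and a rho of 0.83 or above. The 8 genes of each profile are on no vascular list and were not called, and all points share the same 6 libraries, so these correlations are a description only.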

How the data were processed

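The submitters' processing notes name NCBIM37 (mm9), TopHat2 2.0.9, CASAVA 1.8, bedtools 2.12.0 and Bowtie2 2.1.0.0, without their roles. The deposited count files give whole counts of alignments over each gene's span, introns included, in the layout of bedtools coverage, with the fraction of the span covered (deposited, not used here). No source used here says whether counting used strand, so a gene and its antisense partner cannot be told apart. The deposited RPKM, per the authors' file names, were joined by symbols that occur once (34290 genes).

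Counts were tested with edgeR 4.0.16 in R 4.3.3 (filterByExpr, TMM, robust glmQLFit, glmQLFTest, no covariate) over all 6 libraries, with Benjamini-Hochberg adjustment over 21983 genes at 0.05. CPM use TMM library sizes; SEs and 95% intervals come from this fit. SDs are over 3 embryos, and each embryo is 1 library. An exact permutation of 3 against 3 cannot go below 0.1 (two-sided). The 10 markers and all lists were chosen with earlier results of these data known, so no list was tested as a set. Named genes were all markers, the 3 smallest p-values of each list (given here for vascular lists), called genes of vascular lists, the 8 genes most correlated with each profile and, chosen after their values were seen, others that a comparison needed. The alternatives were limma 3.58.1 (voom, and log2(RPKM + 1) or log2(RPKM + 0.1)), DESeq2 1.42.0, other scalings and filters, single embryos left out, embryo number or sex as a term, vehicle 9 halved and genes overlapping no other span. On counts simulated for this comparison (21685 genes), the test recovered 75 of 100 set to differ 2-fold and 99 of 100 set to differ 4-fold, with 7 false calls. These counts were drawn at the dispersion fitted as a trend over expression, with no outlying embryo and no sex difference. The genes set to differ were picked from those averaging 1 CPM or more. The rates may therefore not hold for the real libraries or for genes below that level. Gsx2, with 2 identifiers, and Higd1b, too low, were not tested.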

Additional observations from a re-analysis of the deposited data

How the results depend on the processing

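None of the 189 values of the 10 markers under the 19 alternatives passed, and the lowest adjusted p was 0.0602 (Pdgfrb without FGF2 8). The sign was kept in 173 and changed in 16, all with an adjusted p of at least 0.845. Cdh5 turned to 0.04 with library totals alone, 0.01 with a minimum of 1 CPM and in the 3 RPKM fits, 0.02 without FGF2 6 and 0.04 without vehicle 7. Kdr turned to 0.002 with library totals and 0.01 in the RPKM fits, Flt1 to 0.01 without FGF2 7, Tek to -0.06 with sex, and Esam to -0.01 without vehicle 9, -0.01 with voom and -0.06 with sex. Leaving out 1 embryo gave Rgs5 log2 fold changes of 0.01 to 0.73, Cldn5 of 0.20 to 0.57, Tek of 0.11 (without vehicle 8) to 0.35 (without vehicle 7), Tie1 of 0.11 (without FGF2 8) to 0.25, Pecam1 of 0.17 to 0.29, Pdgfrb of 0.16 to 0.28, Esam of -0.01 to 0.10, Kdr of -0.08 to -0.01, Cdh5 of -0.05 to 0.04 and Flt1 of -0.16 to 0.01. Pecam1 shares its span and has no value among genes overlapping no other span.

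Over all genes, 590 were called higher and 209 lower. Without FGF2 6, 7 or 8 the counts were 420, 335 and 964 higher and 97, 70 and 979 lower, and without vehicle 7, 8 or 9 they were 204, 181 and 250 higher and 38, 37 and 57 lower. DESeq2 gave 1344 and 801, voom with quality weights 1273 and 986, log2(RPKM + 1) 327 and 119, log2(RPKM + 0.1) 328 and 112, log2(RPKM + 1) without a filter 270 and 54, genes overlapping no other span 344 and 144, and embryo sex as a covariate 4 and 1. Same-numbered embryos deviated from their group means with a correlation of -0.09 (number 7) and -0.07 (number 8). These values cannot show whether such embryos share more than a number, and the labels do not say. With embryo number as a replicate block 557 genes were called higher and 146 lower. Angpt1, Wnt7a and Efnb2 were then not called (edgeR adjusted p = 0.183, 0.0745 and 0.105). With sex as a covariate these 3 were at adjusted p = 0.485, 0.208 and 0.324, with log2 fold changes of 0.77, -0.63 and -0.55; vehicle 7 is the only vehicle embryo of the FGF2 embryos' sex. The causes were not tested.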

Other observations

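The basement membrane that vessels share with the pial surface was described by 12 genes. Of these 0 passed with edgeR, 0 with DESeq2 and 0 with voom, and 1 had an unadjusted p under 0.05, against 19.3% of all genes. Col4a2, a chain of collagen IV, was at 234.0 ± 15.9 CPM in the FGF2 embryos against 275.2 ± 23.9 CPM in the vehicle embryos (SD, n = 3, edgeR adjusted p = 0.236). Next by p-value, Hspg2 was at 117.2 ± 16.8 in FGF2 and 135.2 ± 2.03 CPM in vehicle embryos (edgeR adjusted p = 0.352). Fn1 was at 233.2 ± 75.4 in FGF2 and 281.6 ± 38.6 CPM in vehicle embryos (edgeR adjusted p = 0.578). Of the 12 log2 fold changes 11 were below 0, where 51.4% of all genes were above 0. They ran from -0.27 to 0.11, with a median of -0.06. Red blood cell genes, which report the blood left in vessels and sections, had 0 of 10 that passed with edgeR. An unadjusted p under 0.05 was found for 2 of the 10, against 19.3% of all genes. All 10 log2 fold changes were above 0, against 51.4% of all genes, at a median of 0.50. The 10 red blood cell genes summed to 2629 to 4676 CPM in the FGF2 embryos and 2348 to 3293 CPM in the vehicle embryos. The closest to the threshold was Hba-a2, an alpha globin whose reads a near-identical copy can share, at 67.7 ± 31.0 in FGF2 and 20.8 ± 6.72 CPM in vehicle embryos (SD, n = 3, edgeR adjusted p = 0.0506), and it passed with DESeq2 (adjusted p = 6.35e-06). In RPKM its groups overlapped, at 10.7, 29.9 and 26.8 in FGF2 6, 7 and 8 and 12.3, 17.8 and 20.4 in vehicle 7, 8 and 9, and the difference in log2(RPKM + 1) was 0.30 (limma adjusted p = 0.692), against a log2 fold change of 1.70 in counts.

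FGF2 8 held either the highest or the lowest value of all 14 mural genes tested beside Pdgfrb and Rgs5, where over all genes tested it held one of these in 56.0%. It was highest in 8 of them, among them Kcnj8, Abcc9, Cspg4 and Rgs4, and lowest in 6, among them Acta2, Tagln and Notch3. Another of the 6, Anpep, had 9.9 CPM after rounding in both FGF2 8 and vehicle 9. In RPKM vehicle 9 was the lower of these in Anpep, at 2.63 against 2.68. Kcnj8, a potassium channel subunit of pericytes, had 3.54, 4.20 and 6.48 CPM in FGF2 6, 7 and 8, against 1.68, 3.77 and 2.03 CPM in vehicle 7, 8 and 9. Notch3, a receptor of mural cells and progenitors whose span another gene shares in part, had 124.6, 107.1 and 77.9 CPM in the FGF2 embryos, against 152.7, 148.1 and 131.8 CPM in the vehicle embryos. This pattern was noticed in the data, and no test was made of it.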
